A study of Mus musculus with 9 samples.

Results

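The transcripts described here are those of the gate that cells pass to leave G1 and start DNA replication: the D cyclins (Ccnd1, Ccnd2 and Ccnd3), the kinases they activate (Cdk4 and Cdk6), the inhibitors of these kinases (Cdkn2c and Cdkn2d of the INK4 family, Cdkn1a and Cdkn1b of the CIP/KIP family) and Rb1, the substrate that the kinases inactivate. The 10 genes were chosen by symbol from the 51912 genes of the deposited count table, and all 10 were measured well enough to be tested in every comparison. They were measured by bulk RNA-seq in pre-cDCs, the progenitors of conventional dendritic cells (cDCs) that form in the bone marrow (BM) and travel through the blood to tissues such as the spleen.

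In G1, growth factor signals raise the D cyclins, which bind CDK4 or CDK6 and start the phosphorylation of pRB, the product of Rb1. Phosphorylated pRB releases the E2F factors, which switch on cyclin E and the genes of DNA replication. INK4 proteins bind CDK4 and CDK6 directly, whereas the CIP/KIP proteins p21 (Cdkn1a) and p27 (Cdkn1b) inhibit cyclin-CDK2 complexes and also hold assembled cyclin D complexes. Cdk6 and Ccnd3 are the best known members of this set in blood cell progenitors. DNGR-1, the receptor encoded by Clec9a, is expressed along the cDC lineage, and the study asked what its loss changes in these progenitors.

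The pre-cDCs were sorted by FACS from mixed chimeras. Their hosts carried both CD45 alleles (CD45.1/2) on a BL/6 background, were irradiated at a lethal dose and received equal parts of BM from WT and DNGR-1 KO donors, so that both genotypes developed in the same hosts, and no treatment was given. The KO donors were Clec9aCre/Cre with CD45.2, and the WT donors were BL/6 with CD45.1. From BM there were 3 samples of each genotype, and from spleen 1 WT sample and 2 samples of DNGR-1 KO cells. Each sample held cells pooled from a pair of mice, and the KO allele is a germ-line insertion of Cre at the Clec9a locus, so all KO-derived cells lack DNGR-1. The Cre allele was made in ES cells of BL/N origin and then bred onto C57BL/6J, and the study's WT donors carry the congenic CD45.1 interval. One label field of the WT samples reads CD45.2 where the others read CD45.1, which was used here. Age and sex of the mice are not given in the labels, and the labels do not say whether samples of one number share their mice. The study's legend gives a total of mice too small for a separate pair per sample, so some samples shared mice. That total is enough for 3 pairs. If the 3 BM samples of each genotype came from separate pairs, every WT BM sample shared mice with a KO BM sample. Which samples shared mice was not given, and the main tests took all samples as independent, without pairing. Genotype goes together with the CD45 allele and its linked background, and these cannot be told apart. All values are per sample of sorted cells, so a lower level in fewer cycling cells and a lower level per cell cannot be told apart.

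Total counts were 17103806 to 23722298 per sample, and every KO BM total (20551382 or more) lay above every WT BM total (18727339 or less). Between 14862 and 18122 genes were detected in the BM samples and 11698 to 13169 in the spleen samples. Clec9a was counted 905, 1574 and 1766 times in WT BM and once in each KO BM sample, and 2459 times in the WT spleen sample and 0 times in both KO spleen samples, so the genotype labels held in all 9 samples. All 10 markers of the cDC lineage were above 3 counts in every sample. Of these, Irf4 and Xcr1 passed as higher and Irf8 as lower in spleen in the test between tissues given below. Transcripts of several other cell types differed between the tissues. The 7 neutrophil genes summed to 860 to 2764 CPM (counts scaled to a common library size by TMM) in BM and at most 1.06 CPM in spleen, where S100a8 and Elane were at 0. Erythroid genes summed to 47.1 to 308 CPM in BM and 8743 to 50980 CPM in spleen. In the same order, T and NK cell genes summed to 21.3 to 50.6 and 798 to 3859 CPM and macrophage genes to 3.51 to 16.6 and 165 to 532 CPM. The sums of plasmacytoid DC genes overlapped, at 107 to 222 CPM in BM and 39.0 to 130 CPM in spleen. The sort gate excluded cells with markers that included CD3, B220, NK1.1, Ly6D, Ly6G, Siglec-F and Ter119. The part of these transcripts in the differences between tissues was not tested.

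Cdk4 and Cdk6 were the members that differed between spleen and BM, and the sequences before their start sites are shown because both hold CACGTG, the site bound by MYC and MAX. Cdk4 is a known MYC target gene. The 250 bases before the RefSeq start site (GRCm38.p6) were searched for CACGTG, for the E2F sites TTTCGCGC and TTTGGCGC, for the GC box GGGCGG bound by SP1 and for CCAAT, on both strands. None of these overlapped another, and matches are in capitals.
Cdk4, chr10:127063285-127063534, plus strand: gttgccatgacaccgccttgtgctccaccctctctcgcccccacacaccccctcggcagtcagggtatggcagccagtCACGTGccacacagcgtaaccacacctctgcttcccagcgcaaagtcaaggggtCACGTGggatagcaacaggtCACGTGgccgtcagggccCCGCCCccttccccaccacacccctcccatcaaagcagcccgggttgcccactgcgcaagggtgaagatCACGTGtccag
Cdk6, chr5:3343643-3343892, plus strand: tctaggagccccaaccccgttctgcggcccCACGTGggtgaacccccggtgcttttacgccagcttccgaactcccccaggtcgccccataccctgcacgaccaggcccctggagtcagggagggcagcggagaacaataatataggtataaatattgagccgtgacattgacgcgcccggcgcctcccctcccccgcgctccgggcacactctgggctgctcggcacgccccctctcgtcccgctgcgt
Cdkn1b, chr6:134920151-134920400, plus strand: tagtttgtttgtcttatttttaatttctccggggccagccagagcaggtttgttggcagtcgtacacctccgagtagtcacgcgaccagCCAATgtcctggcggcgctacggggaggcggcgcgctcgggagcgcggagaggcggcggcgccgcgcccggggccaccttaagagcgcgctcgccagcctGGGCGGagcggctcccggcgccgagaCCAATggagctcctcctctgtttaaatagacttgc
The Cdk6 gene in GENCODE M21 starts upstream of this window. The Cdk4 sequence held 4 copies of CACGTG and 1 GC box. The Cdk6 sequence held 1 CACGTG and no match to the other letters. Cdkn1b, shown as a member that had no CACGTG, held 2 CCAAT matches and 1 GC box. CACGTG was found in 6.0% of the 32851 promoters of the RefSeq table, the E2F letters in 0.7%, the GC box in 32.7% and CCAAT in 33.8%. The table held 10 promoters for 7 of the 10 members. Ccnd1, Ccnd2 and Rb1 were not among them and were not searched. Of the 7 members searched, CACGTG was in the promoters of Cdk4 and Cdk6 only. Of the 10 promoters, the GC box was in 7, CCAAT in 3 and the E2F letters in 0. A match is a description of the letters, and binding was not measured. The motifs were chosen with earlier results of these data known, and a part of MYC in the tissue differences was not tested. Myc itself was at 311 ± 117 CPM in BM (SD, n = 6) and 212 ± 53.4 CPM in spleen (n = 3), with a log2 fold change of -0.46 and an adjusted p of 0.443 from edgeR's quasi-likelihood test.

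The members lie on 8 chromosomes in GRCm38 (GENCODE M21). Ccnd1 (ENSMUSG00000070348, chr7:144929931-144939925), Ccnd2 (ENSMUSG00000000184, chr6:127125162-127152193) and Ccnd3 (ENSMUSG00000034165, chr17:47505051-47599691) are the D cyclin genes. Cdk4 (ENSMUSG00000006728) spans chr10:127063534-127067920 and Cdk6 (ENSMUSG00000040274) chr5:3341485-3531008. The INK4 genes are Cdkn2c (ENSMUSG00000028551, chr4:109660876-109667189) and Cdkn2d (ENSMUSG00000096472, chr9:21288410-21291407). The CIP/KIP genes are Cdkn1a (ENSMUSG00000023067, chr17:29090976-29100727) and Cdkn1b (ENSMUSG00000003031, chr6:134920401-134925513), and Rb1 (ENSMUSG00000022105) spans chr14:73183673-73325822. Ccnd2 lies 2.26 Mb and Cdkn1b 5.5 Mb from Clec9a, the targeted gene on the same chromosome. Some members overlap a gene on the opposite strand, and the strand setting of the counting was not given in the sources used here. Of all 75-base words in the Cdk4 transcripts, 15.7% also occur in Tspan31 on the opposite strand, and 20.6% of those of Ccnd1 occur in LTO1. Reads of such stretches cannot be assigned to one gene without strand. Tspan31 had a log2 fold change of -0.12 between tissues (adjusted p = 0.718) and LTO1 of 0.10 (adjusted p = 0.846) by edgeR's quasi-likelihood test.

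Per kilobase of exon, Cdk4 and Cdkn2d, the gene of the INK4 inhibitor p19, were the highest members in BM, at 204 ± 36.8 and 163 ± 36.7 CPM per kilobase (SD, n = 6). Their ranges overlapped. Ccnd3 followed at 76.3 ± 11.7 CPM per kilobase, below both and above all others in every BM sample on this scale. Next came Cdk6 at 24.9 ± 11.4, Ccnd1 at 22.9 ± 2.60 and Ccnd2 at 19.2 ± 4.93 CPM per kilobase, whose ranges overlapped. Cdkn1b was at 10.1 ± 1.97, Cdkn2c at 7.41 ± 2.08, Cdkn1a at 4.27 ± 1.16 and Rb1 at 3.07 ± 1.15 CPM per kilobase, each overlapping its neighbour in this order. Cdkn1b lay below Ccnd2 in all BM samples. This order rests on the length used. Per kilobase of the longest coding sequence, an alternative chosen after seeing the data, Ccnd3 came first in BM at 764 ± 117 CPM per kilobase and Cdk4 next at 729 ± 131, with overlapping ranges. Cdkn2d followed at 516 ± 116, Cdk6 at 356 ± 162, Ccnd2 at 208 ± 53.5 and Ccnd1 at 122 ± 13.8 CPM per kilobase of coding sequence.

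In spleen the order opened with Cdkn2d at 87.6 ± 45.5, Cdk4 at 66.8 ± 10.4 and Ccnd3 at 60.6 ± 8.07 CPM per kilobase (n = 3), with overlapping ranges. Ccnd2 came next at 28.4 ± 22.9 CPM per kilobase, and its range of 13.1 to 54.7 did not reach that of Ccnd3. Ccnd1 (19.8 ± 4.06), Cdkn1b (16.5 ± 4.64), Cdkn2c (12.4 ± 6.59), Rb1 (5.30 ± 4.10), Cdk6 (4.07 ± 2.16) and Cdkn1a (3.54 ± 0.514 CPM per kilobase) each overlapped the gene before it. Cdk6 thus had rank 4 of the 10 genes in BM and rank 9 in spleen, or rank 8 in spleen per coding length, where Ccnd3 came first at 607 ± 80.8 and Cdk4 had rank 4 at 239 ± 37.1 CPM per kilobase. The other CDK inhibitors were near or at 0: Cdkn1c (p57) reached at most 1 count in any sample, and Cdkn2a (p16 and p19ARF) and Cdkn2b (p15) were counted 0 times in all 9. At these depths 0 counts allow at most 0.127 to 0.175 CPM per sample, a limit that covers counting error only.

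**Figure D1:**
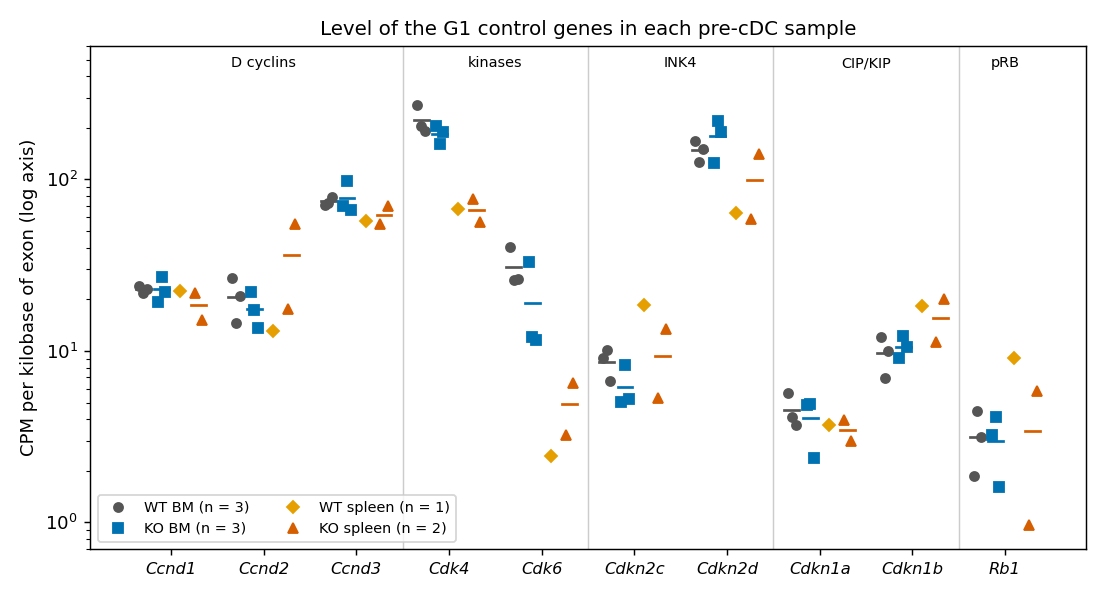
Level of each G1 control gene in CPM per kilobase of exon (log axis) in the 9 pre-cDC samples, with 1 point per sample and a short line at the mean of each group of more than 1 sample. Cdk4 and Cdk6 were lower in each of the 3 spleen samples than in any of the 6 BM samples. The other 8 genes overlapped between tissues. Of all genes tested, 26.5% did not overlap.

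Ccnd3 made up most of the D cyclin level in both tissues. In BM it was 64.4% ± 3.59 of the summed per-kilobase level (SD, n = 6), with Ccnd1 at 19.4% ± 1.47 and Ccnd2 at 16.2% ± 3.96. Per coding length Ccnd3 was again the largest at 69.8% ± 4.19, while Ccnd2 (19.1% ± 4.52) came before Ccnd1 (11.2% ± 0.952). Among the spleen samples Ccnd3 was 61.6% in WT and 58.3% and 49.99% in KO, Ccnd1 was 24.3% in WT and 23.1% and 10.8% in KO, and Ccnd2 was 14.1% in WT and 18.6% and 39.2% in KO. The second KO spleen sample therefore had a larger Ccnd2 and a smaller Ccnd1 share than any other sample. Of the CDK4 and CDK6 level, Cdk4 carried 89.5% ± 3.31 in BM and 94.0% ± 3.82 in spleen, and of the INK4 level Cdkn2d carried 95.5% ± 1.62 in BM and 86.9% ± 7.99 in spleen. Cdkn1b made up 70.3% ± 6.65 of the CIP/KIP level in BM and 81.4% ± 6.74 in spleen. Per coding length the share of Cdk4 was smaller, at 68.6% ± 8.01 in BM and 80.4% ± 10.5 in spleen, and those of Cdkn2d (means of 92.7% and 80.1%) and Cdkn1b (71.0% and 81.9%) moved by less than their SD except for Cdkn2d in BM. These shares were not tested.

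The summed D cyclin level ranged from 102 to 143 CPM per kilobase in BM and from 92.6 to 140 in spleen, so the tissues overlapped. The summed CDK4 and CDK6 level was 173 to 311 CPM per kilobase in BM and 62.8 to 80.3 in spleen, with no overlap. INK4 levels summed to 130 to 227 CPM per kilobase in BM and 64.1 to 154 in spleen. The ratio of the kinase to the INK4 level was 1.38 to 1.77 in WT BM, 0.761 to 1.83 in KO BM, 0.409 and 1.25 for the KO samples of spleen and 0.846 for the WT one, and therefore overlapped between tissues and genotypes.

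**Figure D2:**
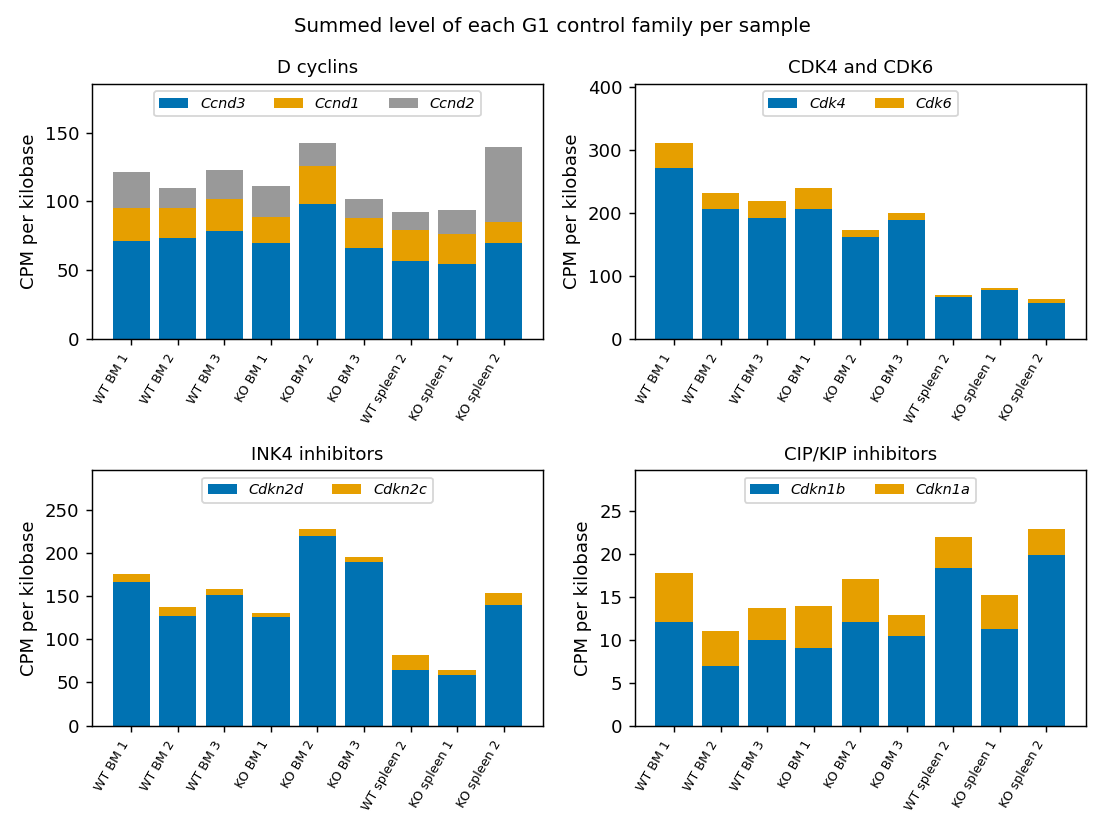
Summed level of the D cyclins, the kinases, the INK4 inhibitors and the CIP/KIP inhibitors in each of the 9 samples (stacked bars from 0, CPM per kilobase of exon, each color 1 gene). The kinase bars of the spleen samples (62.8 to 80.3) are below all BM bars (173 or more), and the D cyclin bars are not.

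Both cyclin D kinases were lower in spleen than in BM pre-cDCs. Tissues were compared in a fit of all 9 samples that also held genotype, by edgeR's quasi-likelihood test with Benjamini-Hochberg adjustment over 13468 genes. Of these genes 2631 passed the threshold of 0.05, which is 19.5%, with 7.28% higher and 12.3% lower in spleen, and the median log2 fold change of all genes was -0.18. Among the 10 members 0 passed as higher and 2 as lower. Cdk4 and Cdk6 were also the members whose tissues did not overlap. Every spleen value lay below every BM value in 17.4% of all genes tested, and the tissues did not overlap in either direction in 26.5%. Counts of 2 of 10 members are too near these shares, and the 19.5% that passed, to set the members apart.

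Cdk4 was at 881, 669 and 623 CPM in WT BM, 668, 523 and 612 CPM in KO BM, 218 CPM in the WT spleen sample and 250 and 183 CPM in the KO spleen samples. Every spleen value was thus below the lowest BM value. The mean was 663 ± 119 CPM in BM and 217 ± 33.8 CPM in spleen, a 2.97-fold lower level (log2 fold change -1.57, standard error 0.20, adjusted p = 0.001205, edgeR). The adjusted p was 3.67e-12 to 0.0271 in the 20 alternative analyses, all of which called Cdk4.

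Cdk6, whose product is a cyclin D kinase of blood cell progenitors, was at 561, 365 and 369 CPM in WT BM and 463, 168 and 163 CPM in KO BM. It was at 34.1 CPM in the WT spleen sample and 45.5 and 91.1 CPM in the KO spleen samples. The BM samples spread over more than 3-fold, and all were above the spleen samples. Cdk6 was 5.70-fold lower in spleen (log2 fold change -2.51, standard error 0.54, adjusted p = 0.01151, edgeR). With the KO samples alone, 3 from BM and 2 from spleen, the log2 fold change was -1.96 and the adjusted p 0.0962, and over the 20 alternatives the adjusted p was 5.32e-06 to 0.0962. Mpo, a gene of granulocyte and early myeloid progenitors, was at 695 to 2103 CPM in BM and at most 0.722 CPM in spleen, and its part in the lower Cdk6 was not tested.

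Neither INK4 inhibitor passed the test between tissues. Cdkn2d was at 262, 200 and 238 CPM in WT BM, 197, 345 and 299 CPM in KO BM, 101 CPM in the WT spleen sample and 92.5 and 221 CPM in the KO spleen samples. The second KO spleen sample lay within the BM range and the other spleen samples below it. The log2 fold change was -0.98 (standard error 0.31, adjusted p = 0.0527, edgeR). It passed in 9 of 20 alternatives, among them the one without the second KO spleen sample (log2 fold change -1.40, adjusted p = 0.008396), and the range of adjusted p was 0.008396 to 0.278. That sample also had the highest sum of T and NK cell transcripts, 3859 CPM against 798 and 1245 CPM in the other spleen samples, and their part in its Cdkn2d level was not tested.

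Cdkn2c, the gene of p18, was at 13.6 to 27.1 CPM in BM with a median of 20.2, at 49.4 CPM in the WT spleen sample and at 14.3 and 36.0 CPM in the KO spleen samples. The first KO spleen sample lay inside the BM range and the other spleen samples above it. The log2 fold change was 0.80 (standard error 0.38, adjusted p = 0.174, edgeR), and without the first KO spleen sample it was 1.11 with an adjusted p of 0.0397 (0.0397 to 0.553 over the 20 alternatives). This sample had the highest erythroid sum of all samples, 50980 CPM, and the part of these transcripts was not tested.

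For the CIP/KIP inhibitors the tissues overlapped. Cdkn1b was at 31.6 to 55.2 CPM in BM with a median of 46.7, at 83.7 CPM in the WT spleen sample and at 51.2 and 90.8 CPM in the KO spleen samples. Its log2 fold change was 0.70 (standard error 0.27, adjusted p = 0.0955, edgeR). DESeq2 (adjusted p = 0.04) and the analysis without the first KO spleen sample (log2 fold change 0.93, adjusted p = 0.0333) called it as higher in spleen, within a range of 0.0333 to 0.345. Cdkn1a, a p53 target gene, was at 8.43 to 20.2 CPM in BM and 10.5 to 14.1 CPM in spleen, and its log2 fold change was -0.25 (standard error 0.42, adjusted p = 0.745, edgeR).

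The D cyclins did not pass the test between tissues. Ccnd1 was at 90.7 to 128 CPM in BM and at 106, 103 and 71.1 CPM in spleen (log2 fold change -0.20, standard error 0.20, adjusted p = 0.547, edgeR). Ccnd3 was at 580 to 864 CPM in BM and 481 to 612 CPM in spleen (log2 fold change -0.35, standard error 0.18, adjusted p = 0.224). Of the 3 spleen samples, 2 lay within the BM range of Ccnd1 and 1 within that of Ccnd3, and the others below it.

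Ccnd2 was at 127 to 250 CPM in BM, 123 CPM in the WT spleen sample, and 165 and 515 CPM in the KO spleen samples. The second KO spleen sample stood above all others, the WT spleen sample lay just below the BM range and the first KO spleen sample within it. With this sample the log2 fold change was 0.48 (standard error 0.46, adjusted p = 0.531, edgeR), and without it -0.32 (adjusted p = 0.479, with 0.162 to 0.772 over the 20 alternatives). Ccnd2 is also strongly expressed by lymphocytes, and the T and NK cell sum given above was highest in the same sample. Its part in the Ccnd2 level was not tested.

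Rb1 was at 9.68 to 26.7 CPM in BM, 54.9 CPM in the WT spleen sample, and 5.79 and 35.0 CPM in the KO spleen samples. The spleen values thus lay both above and below the BM range (log2 fold change 0.76, standard error 0.59, adjusted p = 0.429, edgeR). Lpar6, which lies within Rb1 on the opposite strand and shares 4.52% of its 75-base words, was called as higher in spleen (log2 fold change 1.48, adjusted p = 0.009951, edgeR). Rcbtb2, which also overlaps Rb1 on the opposite strand and shares 5.84% of its words, did not pass (log2 fold change 0.415, adjusted p = 0.344, edgeR). The part of these genes in the Rb1 level was not tested.

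**Figure D3:**
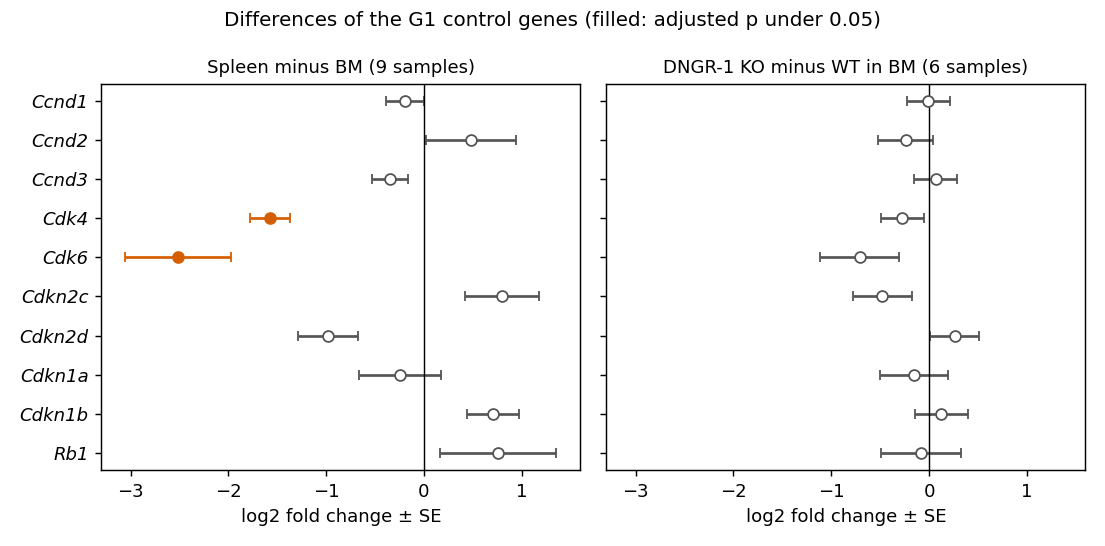
Log2 fold change with its standard error for each G1 control gene between spleen and BM (9 samples) and between DNGR-1 KO and WT in BM (6 samples), from edgeR. Filled points passed an adjusted p of 0.05: Cdk4 (-1.57) and Cdk6 (-2.51) between tissues and no gene between genotypes.

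Genes that act with or after the cyclin D kinases were described by lists of 85 further genes in 9 groups, beside the 19.5% of all genes that passed between tissues. Of the 15 proliferation markers, 0 passed as higher and 15 as lower in spleen, with a median log2 fold change of -4.37. Ccnb1, a mitotic cyclin, was at 486 ± 24.95 CPM in BM and 7.38 ± 1.82 CPM in spleen (log2 fold change -6.06). Mki67, the gene of the Ki-67 antigen, was counted 4040 to 8687 times in BM and 0, 6 and 308 times in spleen in ascending order. Bub1, a spindle checkpoint kinase, was at 634 to 2511 counts in BM and 0 in all spleen samples, and was at least 212-fold lower against a floor of 3 counts per library. This gene was chosen after its values were seen.

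Of the 8 genes of cyclin E, cyclin A, CDK2 and their regulators, 5 were lower in spleen and 0 higher, with a median of -2.28. Cdk2, the kinase of S phase entry, was at 164 ± 29.5 CPM in BM and 37.9 ± 24.8 CPM in spleen (log2 fold change -2.15). Ccne1 (cyclin E1) was at 48.8 ± 15.0 and 12.5 ± 5.62 CPM (log2 fold change -1.83) and passed in 19 of 20 alternatives. Ccne2 was at 47.1 ± 16.1 and 15.9 ± 17.2 CPM and did not pass (adjusted p = 0.207, edgeR). It was called in 2 of 19 alternatives, with log2 fold changes of -6.87 to -1.15 over all 19. Ccna2 (cyclin A2), Cdc25a (a phosphatase that activates CDK2) and Cks1b (a CDK subunit) passed as lower, at -8.62, -4.79 and -3.84 on the log2 scale. In spleen Ccna2 had 0 to 41 and Cdc25a 8 to 32 counts, so their sizes are uncertain. Over the alternatives Ccna2 ranged from -11.76 to -4.01, Cdc25a from -5.71 to -1.25 and Cks1b from -4.40 to -2.99, and all of them called these genes.

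Of the 12 pocket proteins, E2F and DP factors, 2 were lower in spleen and 0 higher, with a median of -1.68. These were Tfdp1, the partner of the E2F factors (log2 fold change -1.95), and E2f7, a repressor, which was at 0 counts in all spleen samples and at least 124-fold lower. E2f1 was at 15.4 ± 2.29 CPM in BM and 5.58 ± 5.13 CPM in spleen and did not pass (adjusted p = 0.313, edgeR). It was called in 2 of 19 alternatives, with log2 fold changes of -6.05 to -0.66 over all 19. The relatives of Rb1 did not pass either: Rbl1 (p107) was at 67.7 ± 17.4 and 30.5 ± 19.9 CPM (adjusted p = 0.103), and Rbl2 (p130), known from resting cells, at 35.8 ± 12.4 and 95.4 ± 94.3 CPM (adjusted p = 0.199). In the MuvB and B-MYB complex 2 of 7 were lower, Mybl2 and Rbbp4, and 0 higher, with a median of -2.08. Mybl2 passed in 18 of 19 alternatives and Rbbp4 in 17 of 20.

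Among the 13 genes of the MYC network and quiescence regulators, 4 passed as higher in spleen and 0 as lower, with a median of 0.50. They were the antiproliferative genes Btg1 (1.70), Btg2 (1.20) and Tob1 (2.26 on the log2 scale), and Klf2 (2.54), a factor of resting lymphocytes and other cells. Btg1, Btg2 and Tob1 each passed in 19 of 20 alternatives. Of p53 and 15 of its target genes, 15 genes could be tested, 4 passed as higher and 0 as lower, with a median of 0.30. Trp53inp1 (2.62), Sesn1 (1.09) and Ccng1 (0.97) were the 3 with the lowest adjusted p. Trp53inp1 passed in 17 of 20 alternatives, but Sesn1 and Ccng1 each passed in only 10 of 20. Sesn1 and Ccng1 lost the call without the WT spleen sample (adjusted p = 0.198 and 0.204, edgeR). Trp53 itself was at 414 ± 114 and 303 ± 56.3 CPM (adjusted p = 0.229, edgeR). None of the 3 genes of the CDK-activating kinase (median -0.24) or the 8 genes of cyclin D turnover (median -0.24) passed. T cells also express Btg1, Klf2 and Rbl2, and the part of the T and NK cell transcripts in these levels was not tested.

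**Figure D4:**
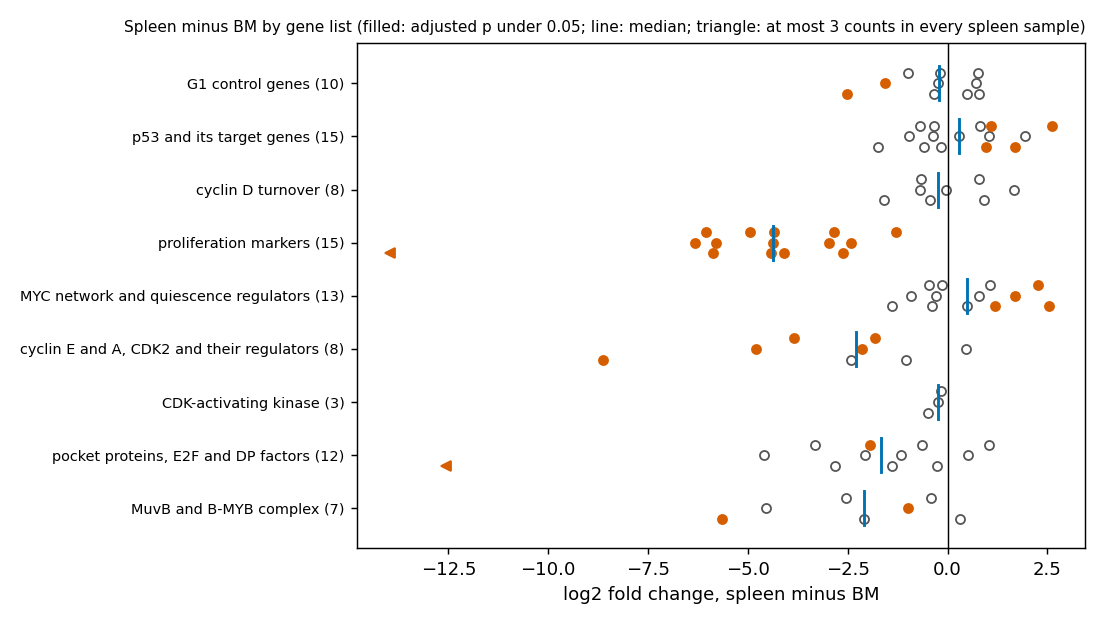
Log2 fold change between spleen and BM of the G1 control genes and of 8 gene lists around them (number of tested genes in parentheses), with 1 point per gene and a line at the median. All 15 proliferation markers are filled and below 0 (median -4.37), against 2 of the 10 G1 control genes. Of all genes tested, 19.5% passed in either direction. The fitted value of a triangle, a gene with at most 3 counts in every spleen sample, depends on the prior count.

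Between genotypes in BM, none of the 10 members passed the test. The 3 KO samples were compared with the 3 WT samples by edgeR's quasi-likelihood test over 13016 genes, of which 4 passed, or 0.0307%, and 498 had an unadjusted p under 0.05. DESeq2 and limma-voom, which called 11 and 5 genes, also called 0 members. The ranges of KO and WT overlapped for all 10 members. Of all genes tested, 9.53% did not overlap, and 0 of 10 members is too near that share to set them apart. The largest difference among the members was that of Cdk6, and the log2 fold changes of the other 9 were between -0.48 and 0.26.

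Cdk6 had values of 561, 365 and 369 CPM in WT and 463, 168 and 163 CPM in KO BM. Of the KO samples 1 lay between the WT values and the others below all of them. The log2 fold change was -0.71 (standard error 0.40, adjusted p = 0.861, edgeR), and without the first KO sample -1.39 (adjusted p = 0.142, with 0.142 to 1.0 over 17 alternatives). The number of genes called without that sample was 15. Mpo was at 1691, 1286 and 885 CPM in the WT samples and 2103, 1155 and 695 CPM in the KO samples in the same order, so that the first sample of each genotype was highest in both genes, and the part of this in the Cdk6 difference was not tested.

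Cdk4 was at 724 ± 138 CPM in WT and 601 ± 73.1 CPM in KO BM (log2 fold change -0.27, standard error 0.22, adjusted p = 0.861, edgeR). Among the D cyclins, Ccnd1 was at 108 ± 5.30 and 107 ± 18.6 CPM (log2 fold change -0.01, standard error 0.22), Ccnd2 at 195 ± 56.4 and 166 ± 39.4 CPM (-0.24, standard error 0.28) and Ccnd3 at 653 ± 34.6 and 686 ± 156 CPM (0.07, standard error 0.22). Their adjusted p values were 0.890 to 0.996.

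Of the inhibitors, Cdkn2c was at 24.4, 27.1 and 18.0 CPM in WT and 13.6, 22.4 and 14.0 CPM in KO BM (log2 fold change -0.48, standard error 0.30, adjusted p = 0.861, edgeR). Cdkn2d was at 233 ± 31.4 and 280 ± 75.4 CPM (0.26, standard error 0.25, adjusted p = 0.870). Cdkn1a was at 16.0 ± 3.71 and 14.4 ± 5.17 CPM (-0.15, standard error 0.35), Cdkn1b at 44.1 ± 11.8 and 48.2 ± 6.88 CPM (0.13, standard error 0.27) and Rb1 at 19.0 ± 7.73 and 18.0 ± 7.64 CPM (-0.08, standard error 0.41). Across the 9 further lists of cell cycle genes, 0 of the 80 genes tested passed in BM, and Mki67 was at 315 ± 84.2 CPM in WT and 345 ± 68.4 CPM in KO. The cyclin E genes Ccne1 (log2 fold change -0.70) and Ccne2 (0.71) did not pass, each with an adjusted p of 0.861 (edgeR).

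In spleen the genotypes could be compared by values only, since WT had 1 sample, and no p is given. No member was more than 1 log2 unit from the WT sample in the same direction in both KO samples. Of all genes tested 22.8% were, and 10 members are too few to be set apart by this. The KO samples differed from each other by 0.35 to 2.58 log2 units over the 10 members. Ccnd2 was at 123 CPM in WT (exact 95% Poisson interval 118 to 129, counting error only) and at 165 (159 to 171) and 515 (506 to 524) CPM in KO. Rb1 was at 54.9 (51.4 to 58.5) CPM in WT and at 5.79 (4.73 to 7.02) and 35.0 (32.7 to 37.5) CPM in KO, so the KO samples were 3.22 and 0.65 log2 units below WT. Cdkn2c was 1.78 and 0.46 log2 units below, and Cdk6 0.41 and 1.41 above the WT sample.

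For the other members the KO samples lay nearer to WT or on both sides of it. In log2 units, Cdk4 was 0.20 above WT in the first KO sample and 0.26 below it in the second, and Cdkn1a (0.10 above and 0.31 below), Ccnd3 (0.06 below and 0.29 above), Cdkn1b (0.71 below and 0.12 above) and Cdkn2d (0.12 below and 1.13 above) also lay on both sides. Ccnd1 was 0.04 and 0.57 log2 units below WT.

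The difference of the genotype effects between the tissues was tested in a fit of all 4 groups, in which the lone WT spleen sample is assumed to vary like the others. None of the 10 members passed. Of all genes 8.85% passed (1192 of 13468), and 0 of 10 members is too near that share to set them apart. The values furthest from 0 were those of Cdk6 (1.71, standard error 0.85, adjusted p = 0.281, edgeR), Ccnd2 (1.70, standard error 0.78, adjusted p = 0.241) and Rb1 (-1.35, standard error 1.16, adjusted p = 0.558). With 1 KO spleen sample left out, Ccnd2 passed without the first (2.30, adjusted p = 0.0214, range 0.0214 to 0.531 over 10 alternatives) and Rb1 without the second (-3.17, adjusted p = 0.0345, range 0.0345 to 0.768).

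The genes whose log2 CPM followed a member most closely over the 9 samples are given as a description, since the samples share tissue and library effects. For Cdk4 they were Hmgb3 (Pearson's r = 0.991), a chromatin protein of progenitors, and Cenpw (0.990), a kinetochore protein, and for Cdk6 Shmt2 (0.987), a mitochondrial enzyme of one-carbon metabolism, and Rcc1l (0.982). With the mean of each tissue removed, the closest were Eif3d (0.988), a subunit of a translation initiation factor, and Cct3 (0.981), a chaperonin subunit, for Cdk4, and Atxn1 (0.986) and Isca1 (0.983) for Cdk6. For Ccnd2 they were Igf2bp2 (0.956) and Il12rb1 (0.952), a cytokine receptor chain of T and NK cells, and after removal of the tissue means Fbxl15 (0.968) and Atf1 (0.967).
The other members were followed most closely by Pqlc1 and Slc35c2 (Ccnd1, both 0.925), Cic and Plekhf2 (Ccnd3, 0.907 and 0.900), Son and Gm42798 (Cdkn1a, both 0.892), Zbtb8os and Mypopos (Cdkn1b, 0.962 and 0.956), Pde8b and Runx2os1 (Cdkn2c, 0.944 and 0.938), Gm45731 and Plekha3 (Cdkn2d, 0.960 and 0.959) and Mcoln1 and Nsf (Rb1, 0.974 and 0.949). After removal of the tissue means Rb1 was followed by Cactin (0.985) and again Mcoln1 (0.973), and Cdkn1b by Gm9917 (0.961) and again Zbtb8os (0.953).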

How the data were processed

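Bulk RNA-seq of sorted pre-cDCs from mixed BM chimeras was analysed in 9 samples, grouped by labelled tissue and genotype, with replicate numbers from the sample titles. RNA was extracted with the RNeasy Micro kit, and libraries were made from total RNA (KAPA Hyper prep with Riboerase) and sequenced with DNBSEQ technology. The authors deposited expected counts per gene without normalization for 51912 genes, and 25.6% of the values above 0 were not whole within a tolerance of 1e-06. A second table deposited by the authors holds log2 values from a variance stabilizing transformation for 20810 genes, used as an alternative. The submitters' processing notes name Trimmomatic 0.36, STAR 2.5.2, RSEM 1.3.0, DESeq2 1.18.1, R 3.4.3 and GRCm38, without their roles.

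Expected counts were rounded to whole numbers, since the design had been written for count tests, and 0 columns were left out. Symbols and positions came from GENCODE M21 (51719 of 51912 identifiers matched) and promoters from RefSeq. Tests used R 4.3.3 and edgeR 4.0.16 (TMM, filterByExpr, quasi-likelihood, Benjamini-Hochberg, threshold 0.05). The filter grouped samples by genotype in BM and by tissue elsewhere. Alternatives used DESeq2 1.42.0, limma 3.58.1, other filters and scalings, a replicate block, the chromosome 1 score that the study regresses out (122 genes here), other sets of samples and each replicate left out. Log2 CPM values for likeness and spleen differences had a prior count of 2. Levels per kilobase used the union of exons. Depth was 17103806 to 23722298 counts, so that 3 counts are 0.127 to 0.175 CPM.

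Named genes were the members, Clec9a, 12 fixed cell cycle genes and, per list, the 3 lowest adjusted p among genes called. Members, lists and motifs were chosen with earlier results of these data known. Replicates differed by a chi-square of 28.9 to 257 per gene, so no library was counted as a repeat. Nothing in the labels says how the pairs of mice were assigned, and p-values measure the spread between these samples. Some samples shared mice, which the main tests did not model. The fits were checked on simulated counts. One marker list is not reported here.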

Additional observations from a re-analysis of the deposited data

Results flagged for a closer look

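In the test of the difference between the genotype effects of the tissues, 81 genes of the cell cycle lists could be tested, of which 7 passed as higher and 4 as lower, beside 8.85% of all genes tested. The members are not part of these lists, and all of these calls rest on the 1 WT spleen sample. The naming rule took 10 of them and left out E2f5 (9.61 on the log2 scale, adjusted p = 0.03828, edgeR), which was named after its value was seen and also had 0 counts in the WT spleen sample. Higher in KO relative to WT in spleen than in BM were Ccne2 (11.16), E2f1 (10.26), E2f3 (8.82), Ccna2 (7.80), Cdk1 (5.95) and Dyrk1a (3.53 on the log2 scale, adjusted p 0.001809 to 0.02358, edgeR). With a replicate block E2f3 (adjusted p = 0.0697) and Ccna2 (0.0967) were no longer called, and they passed in 6 and 8 of 10 alternatives. The WT spleen sample had 0 counts of Ccne2, E2f1, E2f3 and Ccna2 and 3 of Cdk1, so the fitted values of these 5 depend on the prior count and are no bounds. The KO spleen samples had 607 and 320 counts of Ccne2, 118 and 238 of E2f1, 19 and 113 of E2f3, 41 and 16 of Ccna2 and 240 each of Cdk1.

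Lower were E2f8 (-7.59), Mybl2 (-6.27), Aurkb (-1.93) and Cdk2 (-1.79, adjusted p 0.001457 to 0.02891, edgeR). Aurkb passed in 4 and Cdk2 in 5 of 10 alternatives, and with a replicate block neither did (adjusted p = 0.099 and 0.0795). E2f8 was counted 448 times in the WT spleen sample and 4 and 2 times in the KO spleen samples. Mybl2 was counted 47 times against 1 and 0, Aurkb 864 times against 333 and 236, and Cdk2 1116 times against 405 and 576. The KO spleen counts of E2f8 and Mybl2 were at or near 0, so their fitted values also depend on the prior count and are no bounds. The WT spleen sample had the fewest detected genes of all samples, 11698, and the part of this in these differences was not tested.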

How the results depend on the processing

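Which samples shared mice was not given, and the numbers were taken as names only. BM samples of the same number correlated at 0.102, 0.0975 and -0.0782 in their deviations from the group means. The highest value was that of WT sample 3 with KO sample 2 (0.1745), and WT sample 1 correlated best with KO sample 3 (0.113). With so few samples per group these values cannot show whether samples of one number shared mice. With a replicate block, 4 genes passed between genotypes in BM, 1246 between tissues in place of 2631 and 635 in the interaction in place of 1192, and the members called were the same in number. Between tissues, 4789 genes passed in a fit of 4 groups and 1336 with KO samples only, and the number of members called was 4 with DESeq2 and 1 with KO samples only, in place of 2. In BM, DESeq2 called 11 and no filter 10 genes in place of 4, and in the interaction DESeq2 called 2190. Leaving out each replicate gave 2 to 15 genes called in BM (15 without KO replicate 1), 1848 to 3187 between tissues and 831 to 2704 in the interaction, 0 members in BM, 2 to 4 between tissues (4 without KO spleen replicate 1) and 0 to 1 in the interaction. In the spleen genotype comparison 3 members passed a log2 difference of 1 without KO replicate 1 and 2 without KO replicate 2, in place of 0. Without length, or per coding length, the share of Ccnd1 was 11.3% and 11.2% in BM and 11.4% and 11.3% in spleen, and that of Ccnd3 in BM 69.8% in both.

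Signs that changed belonged to values that had not passed. In BM these were Ccnd1 (0.001 with VST values, 0.011 with no filter, 0.002 with the chromosome 1 score) and, over the replicates left out, Ccnd1 (-0.129 to 0.104), Ccnd3 (-0.117 to 0.179), Cdkn1a (-0.303 to 0.123), Cdkn1b (-0.061 to 0.327), Rb1 (-0.374 to 0.251), E2f1 (-0.068 to 0.265) and Mki67 (-0.033 to 0.357). Between tissues it was Ccnd2 (-0.320 to 1.034). In the interaction a replicate block gave -0.049 for Cdkn1a and -0.124 for Trp53, and leaving out replicates gave -0.132 to 0.263 for Ccnd3, -0.215 to 0.244 for Cdkn1a, -1.313 to 0.014 for Cdkn2c, -0.389 to 0.865 for Cdkn2d, -0.502 to 0.949 for Ccne1 and -0.153 to 0.188 for Trp53. The cause of these changes was not tested.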
